A study of Mus musculus with 8 samples.

Results

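Open chromatin at 35 genes of DNA replication and mitosis was examined in sorted mouse leukemia cells with and without DEK, a nuclear protein that binds chromatin. The genes cover the loading and firing of the replicative helicase, the E2F transcription factors, the cyclins and cyclin-dependent kinases, mitotic kinases, and nucleotide synthesis. A peak of open chromatin was assigned to a gene when its summit lay inside the gene or within 10 kb of it. Merged over 8 libraries wherever they shared at least 1 bp, the peaks gave 138385 regions, of which 194 belonged to the 35 genes, among 21631 protein-coding genes in the gene table. Of these 194 regions, 39 are called promoters below, since a summit lay within 1 kb of the gene's own annotated start or, for 6 genes with no annotated start in the table, of either end of the gene. A further 18 lay at the start of a neighbouring gene, and 137 were other sites.

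ATAC-seq, in which a transposase inserts sequencing adapters into accessible DNA, was applied to L-GMPs, the leukemic granulocyte-macrophage progenitors of mice with acute myeloid leukemia driven by the MLL-AF9 fusion. They were sorted from bone marrow for CD34, CD16/32 and c-Kit, without Sca-1 or lineage markers. There were 3 knockout libraries (KO), 2 libraries from mice whose DEK has 4 serines changed to alanine, labelled Dek-Ser306A/Ser308A/Ser311A/Ser312A (4S-A), and 3 control libraries (FL). KO 1 and KO 2 were Dekfl/fl,MX1-Cre and KO 3 was Dekfl/fl;Tie2-Cre. FL 1 and FL 2 were Dekfl/fl without Cre, and FL 3 was Dek+/+. The Mx1-Cre and Dekfl/fl genotypes of these 4 libraries stand in the sample labels but not in the study's design text, which gives the Tie2-Cre knockout, Dek+/+ and 4S-A, so the sets rest on the labels. KO 1, KO 2, FL 1 and FL 2 are called the Mx1-Cre set, and KO 3, both 4S-A libraries and FL 3 the Tie2-Cre set. The Mx1 promoter is induced by interferon in blood and other cells, and the Tie2 promoter is active in endothelium and the blood lineage, so neither deletes only in leukemia cells. All 8 libraries carry MLL-AF9, none is from normal progenitors, and replicates are not stated to be separate mice, so their spread may be technical.

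Cells enter S phase when E2F factors, freed from the retinoblastoma proteins by cyclin-dependent kinases, switch on the genes for replication. In G1 the origin recognition complex, CDC6 and CDT1 load the MCM helicase onto DNA, and CDC45 and the GINS complex then activate it. Genes of G2 and mitosis are held back earlier in the cycle by a repressor complex that binds the cell cycle genes homology region (CHR) in their promoters, and many of them also need the factor NF-Y at CCAAT boxes.

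The promoters differ in these short motifs, and the following were chosen to show the contrast between replication and mitotic genes. Each line gives the 180 bases before the annotated start, 5′ to 3′ on the gene's strand, from RefSeq on GRCm38.p6, the assembly also called mm10. All 8 stretches lie inside a promoter region found in every library. Capitals mark matches, on either strand, to an E2F motif (TTCCCGC or TTGGCGC or TTCGCGC or TTGCCGC), the CHR (TTTGAA or TTTAAA) or the CCAAT box (CCAAT). Matches that overlap run together.
Mcm6 (chr1:128359706-128359885, minus strand): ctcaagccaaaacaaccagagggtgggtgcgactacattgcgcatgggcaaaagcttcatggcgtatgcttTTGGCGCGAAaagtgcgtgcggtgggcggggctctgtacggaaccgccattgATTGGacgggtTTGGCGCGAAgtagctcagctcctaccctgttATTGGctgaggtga
Mcm5 (chr8:75109329-75109508, plus strand): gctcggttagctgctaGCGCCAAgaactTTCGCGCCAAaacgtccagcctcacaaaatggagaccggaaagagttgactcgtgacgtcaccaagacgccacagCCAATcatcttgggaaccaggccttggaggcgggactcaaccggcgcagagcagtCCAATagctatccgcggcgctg
Rrm1 (chr7:102441515-102441694, plus strand): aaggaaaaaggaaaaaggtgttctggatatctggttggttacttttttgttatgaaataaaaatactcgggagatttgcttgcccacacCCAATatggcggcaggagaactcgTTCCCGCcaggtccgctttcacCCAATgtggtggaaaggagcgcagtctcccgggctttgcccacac
Cdk1 (chr10:69352913-69353092, minus strand): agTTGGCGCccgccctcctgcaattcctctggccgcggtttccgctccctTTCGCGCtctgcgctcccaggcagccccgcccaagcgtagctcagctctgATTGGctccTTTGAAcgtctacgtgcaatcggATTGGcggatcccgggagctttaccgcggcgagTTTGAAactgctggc
Ccnb2 (chr9:70421555-70421734, minus strand): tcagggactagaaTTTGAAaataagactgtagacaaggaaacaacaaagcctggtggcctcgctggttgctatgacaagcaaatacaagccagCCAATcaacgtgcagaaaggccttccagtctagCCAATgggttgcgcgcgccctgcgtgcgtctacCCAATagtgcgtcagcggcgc
Ccnb1 (chr13:100786487-100786666, minus strand): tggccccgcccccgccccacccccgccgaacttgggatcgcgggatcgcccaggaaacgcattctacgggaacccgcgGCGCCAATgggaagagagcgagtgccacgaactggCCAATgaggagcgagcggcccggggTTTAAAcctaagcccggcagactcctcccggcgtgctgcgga
Top2a (chr11:99024190-99024369, minus strand): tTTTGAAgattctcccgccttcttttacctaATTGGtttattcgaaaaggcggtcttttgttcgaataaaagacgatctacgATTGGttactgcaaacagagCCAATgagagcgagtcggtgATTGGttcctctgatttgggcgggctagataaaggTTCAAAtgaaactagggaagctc
Plk1 (chr7:122159255-122159434, plus strand): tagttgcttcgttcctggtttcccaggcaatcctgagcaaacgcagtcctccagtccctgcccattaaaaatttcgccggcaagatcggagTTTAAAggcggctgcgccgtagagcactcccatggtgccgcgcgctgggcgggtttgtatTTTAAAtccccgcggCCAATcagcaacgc

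Mcm6 and Mcm5, subunits of the helicase, held 4 and 3 E2F matches, some overlapping, and no CHR in this stretch. Rrm1, the large subunit of ribonucleotide reductase, held 1 E2F match and no CHR. Ccnb2, Top2a and Plk1, which act in mitosis, held 1, 2 and 2 CHR matches and no E2F match. Cdk1, the kinase that drives entry into mitosis, held 2 of each. Ccnb1 likewise held both kinds, with 1 E2F match and 1 CHR match, beside 2 CCAAT boxes. Ccnb2, a B-type cyclin, held 3 CCAAT boxes, at positions -87, -54 and -21 counted back from -1 just before the start, and Top2a, the topoisomerase that untangles sister chromosomes, held 4.

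The promoter table had an entry for 29 of the 35 genes, as a window of 250 bases before to 50 bases after each start. In that window 17 of the 29 genes (58.6%) held an E2F motif, against 13.9% of all 17274 protein-coding genes with an entry. A CHR was present in 16 of 29 (55.2%), against 27.7% of all genes, and a CCAAT box in 24 of 29 (82.8%), against 42.7%. At least 2 CCAAT boxes were present in 17 of 29 (58.6%), against 14.8%. Among the 10 helicase loading and fork genes with an entry, 7 held an E2F motif and 3 a CHR. Among the 9 mitotic genes with an entry, 3 held an E2F motif, 8 a CHR and 9 a CCAAT box. These 9 genes take in Ccnb1, Ccnb2, Cdk1, Top2a and Mki67. A match describes the letters only and does not show that a factor binds.

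The libraries differed in depth as far as the peak lists show it. The Tie2-Cre set had 91586 to 104605 peaks per library and the Mx1-Cre set 51510 to 74026, and read numbers are unknown. For that reason a region's strength is given as a percentile of the authors' −log10 q, either among the 33321 regions held by all 8 libraries (shared-region percentile) or among all regions of that library (list percentile). Of 7 genes that mark the sorted cells, 6 had a promoter peak in all 8 libraries (Kit, Cd34, Fcgr3, Fcgr2b, Mpo and Elane), and Prtn3 had none. Of 4 B cell and 4 T cell genes, 3 each had no promoter peak in any library. The Dek promoter had a peak in all 8, at list percentiles of 64.2, 71.6 and 85.0 in KO, 88.9 and 87.2 in 4S-A, and 74.2, 77.2 and 81.8 in FL. A promoter peak does not test the deletion, so the genotypes rest on the labels. The number of cycling cells and the openness of each cell cannot be told apart in these bulk libraries.

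Nearly every replication and mitosis gene had an open promoter in every library. A promoter region was present in all 8 libraries for 34 of the 35 genes, against 52.3% of all protein-coding genes (11305 of 21631). The exception was Tyms, the thymidylate synthase gene, whose promoter was missing in KO 1. It stood at list percentiles of 15.5 and 72.0 in KO 2 and KO 3, 78.7 and 81.0 in 4S-A, and 47.7, 37.2 and 69.3 in FL 1, FL 2 and FL 3. The Tie2-Cre set was higher at Tyms than the Mx1-Cre set in every library, and the contribution of list length was not tested. By region, 35 of the 39 promoters (89.7%) were held by all 8 libraries, against 66.8% of all 15968 promoters of protein-coding genes. The other sites showed no such excess, since 25 of 137 (18.2%) were in all 8 libraries, against 18.8% of all 83571 other sites.

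**Figure D1:**
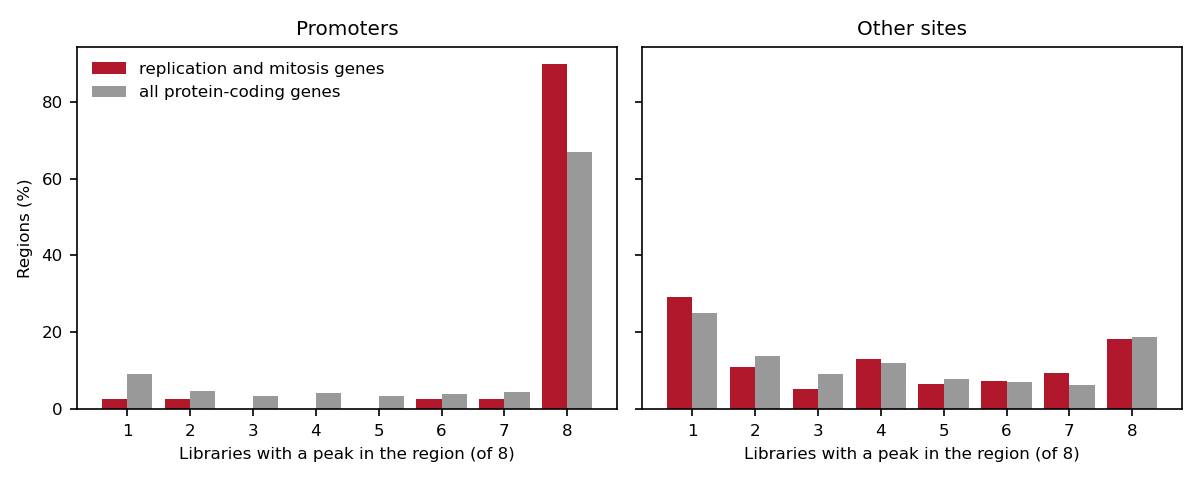
Percent of regions (vertical axis) by the number of libraries that hold a peak in them (horizontal axis), for replication and mitosis genes and for all protein-coding genes; promoters are on the left and other sites on the right. Promoters of the 35 genes pile up at 8 libraries (89.7%), while their other sites follow the spread of all other sites (18.2% and 18.8% at 8 libraries).

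The promoters were also strong. The median over 34 genes of the mean shared-region percentile was 83.5 (range 36.5 to 99.1), against 74.8 for all 10668 promoters held by all libraries. Above 75 lay 25 of the 34 (73.5%), against 49.6% of all promoters. The 34 values took the strongest promoter of each gene, while the background counted every promoter region. For 74 promoters of other replication and mitosis genes, from the wider list below, the median was 86.3, and 54 (73.0%) lay above 75. High strength was thus not particular to the 34 genes. The strongest was Gins2, a subunit of the GINS complex, followed by Ccna2, the S-phase and G2 cyclin, Pcna, the sliding clamp of the fork, Mcm4 and Cdc6, with means of 99.1, 97.9, 97.6, 97.3 and 96.7. At Gins2 the authors' fold enrichment was 14.1, 15.1 and 12.2 in KO, 11.9 and 11.7 in 4S-A, and 12.9, 14.0 and 13.5 in FL. The lowest were E2f2, Plk1, Aurkb and Bub1b, with means of 36.5, 38.7, 41.1 and 49.7.

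**Figure D2:**
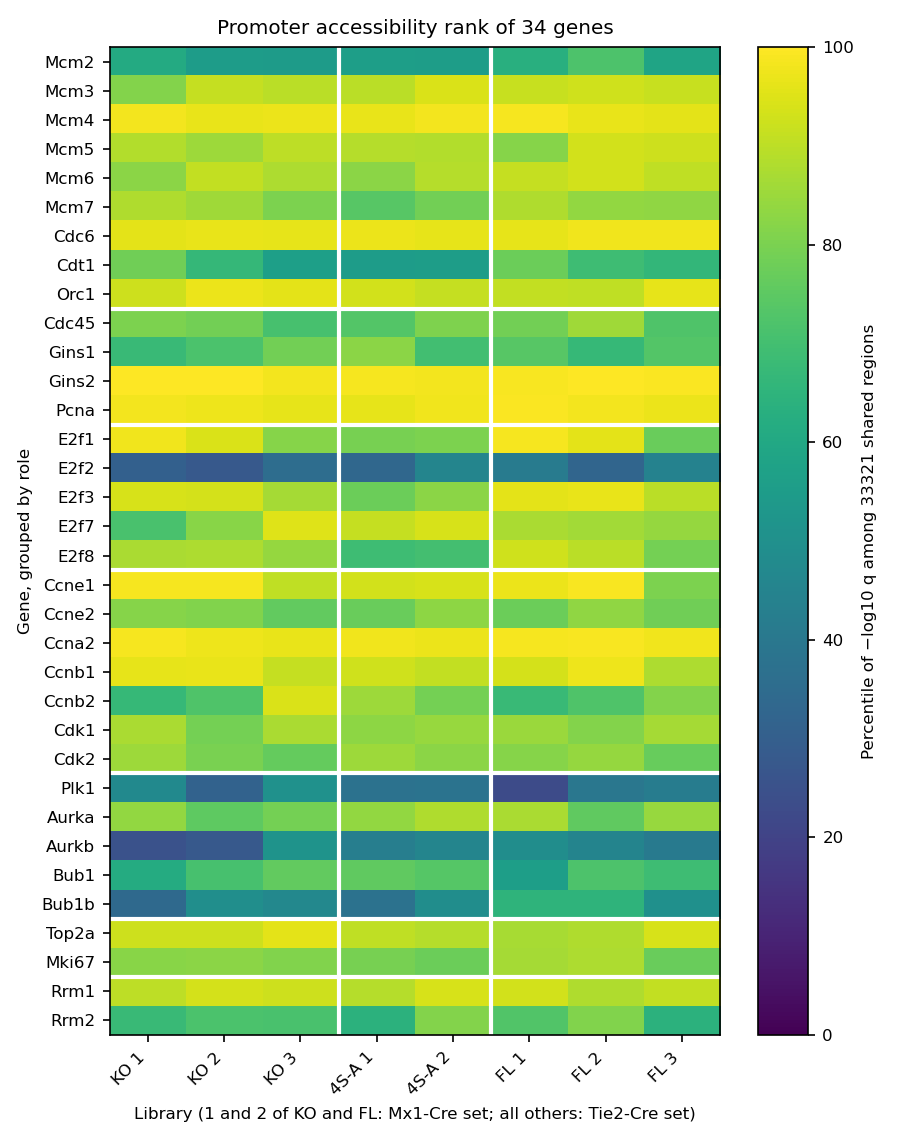
Shared-region percentile of the main promoter (colour, among 33321 regions held by all 8 libraries) for 34 genes down the page, grouped by role, in 8 libraries from left to right. Rows differ far more than columns: Gins2, Ccna2 and Pcna are near the top in every library, and E2f2, Plk1 and Aurkb are at 51.6 or lower in every library.

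Among the 9 genes of helicase loading the median of the mean percentiles was 88.5. Orc1, the largest subunit of the origin recognition complex, stood at 92.5, 97.0 and 96.0 in KO, 93.1 and 91.2 in 4S-A, and 90.9, 90.6 and 96.3 in FL. Its peak region also covers the start of Prpf38a, and those of Mcm4 and Mcm7 cover the starts of Prkdc and Ap4m1, so the openness there cannot be assigned to either gene of the pair. Mcm2, another helicase subunit, was the lowest of the 9, at 61.3, 55.2 and 55.1 in KO, 56.0 and 55.6 in 4S-A, and 63.0, 71.9 and 58.3 in FL. KO 2 and KO 3 lay below all FL libraries at Mcm2, and KO 1 lay between them. Cdt1, which brings the helicase to origins with CDC6, read 78.5, 66.6 and 56.3 in KO, 55.2 and 55.7 in 4S-A, and 77.4, 68.8 and 66.4 in FL. KO and FL overlapped at Cdt1 inside the Mx1-Cre set, and both 4S-A libraries and KO 3 were its 3 lowest.

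The 4 genes of helicase activation and the fork had a median of 87.6. Cdc45, which shares its region with the start of Ufd1, read 80.4, 78.5 and 71.0 in KO, 73.1 and 80.6 in 4S-A, and 78.6, 85.8 and 72.3 in FL. Gins1 read 67.6, 71.7 and 78.7 in KO, 82.8 and 69.9 in 4S-A, and 74.1, 67.1 and 73.2 in FL. Over the 8 libraries the 3 genotypes overlapped at both genes.

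The 5 E2F genes had a median of 86.4 and the widest range of any role. E2f1, an activator of S-phase genes, read 97.8, 94.3 and 81.9 in KO, 79.6 and 80.4 in 4S-A, and 98.8, 96.0 and 77.2 in FL. At E2f1 the sets separated, since the Mx1-Cre set lay at 94.3 or more and the Tie2-Cre set at 81.9 or less. KO and FL overlapped there, and both 4S-A libraries lay between KO 3 and FL 3. E2f3, another activator, read 93.9, 93.6 and 86.5 in KO, 77.5 and 82.6 in 4S-A, and 96.0, 96.7 and 89.7 in FL. Both 4S-A libraries were the lowest of the 8 there. A second, weaker E2f3 promoter region (chr13:29984171-29985736) was also held by all 8 libraries. That region read 64.5, 68.1 and 59.7 in KO, 51.2 and 46.3 in 4S-A, and 76.1, 71.9 and 42.1 in FL. FL 3 was the lowest at the second region. E2f7, a repressor of the family, read 71.3, 82.4 and 95.1 in KO, 91.3 and 93.8 in 4S-A, and 87.2, 86.1 and 84.2 in FL. E2f2, an activator, has 2 annotated starts, with a promoter region assigned to each. The region near the downstream start was held by all 8 libraries, and only through it does E2f2 count as open in all. It does not cover that start, and its summits lay at -651 to -617 bases. This region read 30.6, 28.0 and 35.8 in KO, 33.4 and 45.6 in 4S-A, and 41.5, 32.7 and 44.1 in FL. The region at the upstream start (chr4:136172066-136173319) was missing in KO 1 and FL 2, and stood at list percentiles of 17.3 and 73.6 in KO 2 and KO 3, 56.2 and 66.8 in 4S-A, and 24.8 and 72.0 in FL 1 and FL 3.

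The 7 cyclin and kinase genes had a median of 84.3. Ccnb1, the main mitotic cyclin, read 96.2, 96.6 and 91.3 in KO, 92.7 and 90.8 in 4S-A, and 93.6, 97.3 and 87.6 in FL. Ccnb2 read 66.9, 72.3 and 94.3 in KO, 85.5 and 79.2 in 4S-A, and 67.7, 72.7 and 81.3 in FL, so it was the Tie2-Cre set that was high. Top2a read 92.3, 92.4 and 95.8 in KO, 90.6 and 88.9 in 4S-A, and 86.8, 88.1 and 93.9 in FL. Mki67, which codes for the proliferation marker Ki-67, read 82.0, 82.5 and 81.0 in KO, 79.6 and 77.7 in 4S-A, and 86.4, 87.8 and 77.3 in FL. Over all libraries FL overlapped with KO and with 4S-A at both promoters, and both 4S-A libraries lay below every KO library. Inside each set KO was above FL at Top2a, and both 4S-A libraries were below KO 3 and FL 3 (limma difference for KO 3.91 ± 2.81, adjusted p 0.695).

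The 5 mitotic kinase and checkpoint genes had the lowest median of any role, 49.7. Within that role Aurka, the centrosome kinase, was high, with a mean of 82.1, in a region shared with the start of Cstf1. Bub1, a spindle checkpoint kinase, had a mean of 69.4. For nucleotide synthesis, Rrm1 and Rrm2, the 2 kinds of subunit of ribonucleotide reductase, had means of 91.4 and 71.9. Many promoter peaks lay close to the start: the median summit lay at -6 bases at Mcm6, -35.5 at Plk1 and 40 at Rrm1, where negative values lie before the start. Farther from the annotated start used were E2f2, E2f1, E2f8 and Cdc6, with median summits at -640, -585, 506.5 and -442.5 bases. The gene spans of E2f1 and Cdc6 begin before that start, and both promoter regions cover the upstream end of the span. The strongest summit lay 119 bases outside the span at E2f1 and inside it at Cdc6.

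Knockout of Dek gave no call at these genes. Of 82 regions of the 35 genes held by all 3 FL libraries, 0 were missing from all 3 KO libraries, against 0.214% of all regions that could be lost. Of 84 held by all 3 KO libraries, 0 were missing from all FL libraries, against 0.754%. With each list limited to its 51510 strongest peaks, the counts were 0 of 79 lost (0.563% of all) and 0 of 77 gained (0.706%). With KO 1 left out, 1 of 105 was gained, against 2.42% of all, and with FL 3 left out, 2 of 84, against 10.7%. For KO 1 and KO 2 against FL 1 and FL 2, 0 of 82 were lost (2.07% of all), and 2 of 85 were gained, against 13.5%. In lists of equal length, 4 of 82 were lost there (5.01% of all) and 2 of 80 gained (7.88%). In the full lists, those gained lay 9574 bases downstream of the Pcna start and 23177 bases downstream of the Mcm5 start, and FL 3 also held both. Inside the Tie2-Cre set, with 1 library against 1, KO 3 lacked 18 of the 147 regions of FL 3 (14.4% of all) and had 17 of 146 that FL 3 lacked (15.3%). These shares describe 2 libraries only.

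Strength was then compared in 73 regions of the 35 genes held by all 8 libraries, with limma on shared-region percentiles, the set as a term, and Benjamini-Hochberg adjustment over all 33321 regions. For KO against FL, limma called 0 of 73 (0% of all in each direction). At an unadjusted p under 0.05 limma gave 1 higher and 2 lower, against 5.21% and 5% of all regions. KO and FL values did not overlap in 1 of 73 regions for higher and 3 of 73 for lower, against 3.32% and 3.45% of all regions. Among promoters these were Bub1b and Mcm3, both lower in KO. Mcm3 read 81.6, 91.3 and 89.6 in KO, against 91.5, 92.7 and 91.8 in FL, with KO 2 within 1 point of FL 1 (limma difference -4.48 ± 3.74, adjusted p 0.748).

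Bub1b, which codes for the checkpoint kinase BUBR1, had the largest difference among promoters. Its promoter read 34.2, 49.3 and 46.7 in KO, against 65.1, 65.2 and 50.1 in FL. KO lay below every FL library, but KO 2 and FL 3 were within 1 percentile point. The limma difference was -16.7 ± 6.35 points (SE), with an adjusted p of 0.464. Aurkb, the kinase of the chromosomal passenger complex, read 25.1, 27.9 and 51.6 in KO, against 49.0, 45.3 and 41.4 in FL. KO 1 and KO 2 were low at Aurkb and KO 3 was the highest of the 8, so the groups overlapped (limma difference -10.3 ± 6.50, adjusted p 0.648). E2f2, Mcm2 and Mcm6 followed, with limma differences of -7.97, -7.21 and -4.65 points and adjusted p of 0.598, 0.580 and 0.725. Inside each set KO lay below FL at these 3 promoters.

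In the other direction Plk1, the Polo-like kinase, read 47.5, 31.4 and 50.7 in KO, against 22.7, 39.8 and 41.9 in FL. The groups overlapped, since KO 2 lay below FL 2 and FL 3 (limma difference 8.39 ± 6.05, adjusted p 0.696). Ccnb2, Top2a, Bub1 and Ccne1 followed, with limma differences between 3.67 and 3.94 points and adjusted p of 0.827, 0.695, 0.874 and 0.770. Aurkb and Plk1, both mitotic kinase genes, thus had differences of opposite sign, and neither passed. A test of whether the knockout difference itself differed between the sets called 0 of 73 regions, with 4 and 3 at an unadjusted p under 0.05 (6.28% and 5.77% of all), and limma called 0 of 33321.

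**Figure D3:**
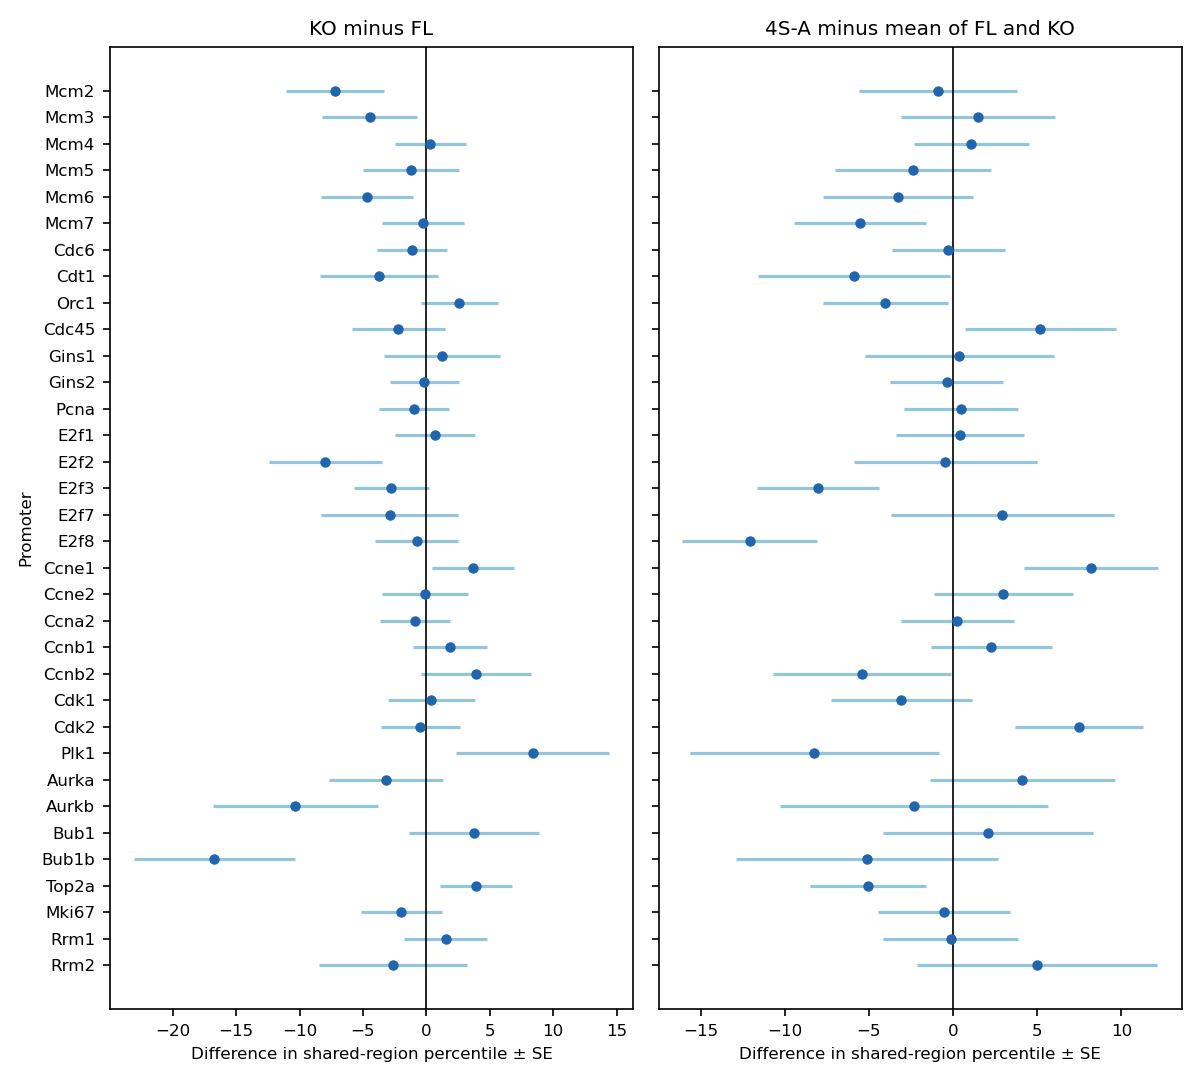
Difference in shared-region percentile (horizontal axis, points, with SE bars from limma) at 34 promoters, for KO minus FL on the left and 4S-A minus the mean of FL and KO on the right. Bub1b (-16.7) and E2f8 (-12.1) lie farthest from 0, and no promoter passes an adjusted p of 0.05 in either panel.

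Averaged over the 35 promoters held by all 8 libraries, the shared-region percentile was 79.2 ± 0.516 in KO and 80.5 ± 2.12 in FL (SD, n = 3 each). The difference of -1.25 points had an exact two-sided permutation p of 0.4, where the smallest possible p is 0.1. All promoters of protein-coding genes gave 66.9 in KO and 67.6 in FL, a difference of -0.782. For the 35 promoters the difference was -2.74 inside the Mx1-Cre set and 1.73 inside the Tie2-Cre set, and for all promoters -1.88 and 1.41. Ranking within whole lists turned the difference of the 35 promoters to 0.567 (exact permutation p of 0.8).

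The phosphorylation-site mutant was compared with KO 3 and FL 3, the other libraries of its set. Its changes in presence fell at sites away from promoters, with 1 exception, and such sites were 137 of the 194 regions. The 35 promoters held by all 8 libraries could show no change in presence. Of 129 regions held by both KO 3 and FL 3, 4 were lost in 4S-A (absent from 4S-A 1 and 4S-A 2), against 5.16% of all regions. Of 133 held by both 4S-A libraries, 7 were gained (absent from KO 3 and FL 3), against 10.8%. Neither share exceeded the background. In lists of equal length, 5 of 98 were lost and 6 of 92 gained, against 7.03% and 9.3% of all regions. Without KO 3, 15 of 147 were lost (11.7% of all), without FL 3 15 of 146 (10.9%), and without 4S-A 1 7 of 129 (10.7%). Without FL 3, 11 of 133 were gained (15% of all), and without 4S-A 2 11 of 146 (17.3%). Set against all 6 FL and KO libraries, 0 of 73 were lost (1.36% of all) and 6 of 133 gained (9.75%).

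Of the 7 gained sites, 5 lay at Mcm3 and E2f7. Upstream of Mcm3, a helicase subunit, a region 7953 bases before the start (chr1:20828078-20828455) stood at list percentiles of 71.4 and 72.3 in 4S-A and was in no KO or FL library. A neighbouring region 9269 bases before the start (chr1:20829243-20830146) stood at 79.2 and 75.8 in 4S-A and was likewise in no KO or FL library. Inside E2f7, a region 18181 bases from the start (chr10:110763269-110763823) stood at 79.5 and 72.9 in 4S-A alone. These 3 were also gained in lists of equal length.

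The other gained sites were weaker. A site 16042 bases into E2f7 stood at list percentiles of 17.8 and 13.5 in 4S-A, and 1 at 16820 bases stood at 36.3 and 36.9 in 4S-A and 10.8 in FL 2. A site at -7367 bases from the E2f8 start, upstream of that close relative of E2f7, stood at 42.7 and 23.6, and 1 lying 5798 bases into Mki67 at 17.3 and 37.7, in 4S-A only. E2f7 had 9 and 8 regions in the 4S-A libraries, 3, 2 and 4 in KO, and 1, 3 and 5 in FL, while its own promoter was present in all 8. The E2f7 region 15310 bases from the start was in KO 3, both 4S-A libraries and FL 3, so openness in that stretch was not limited to 4S-A.

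**Figure D4:**
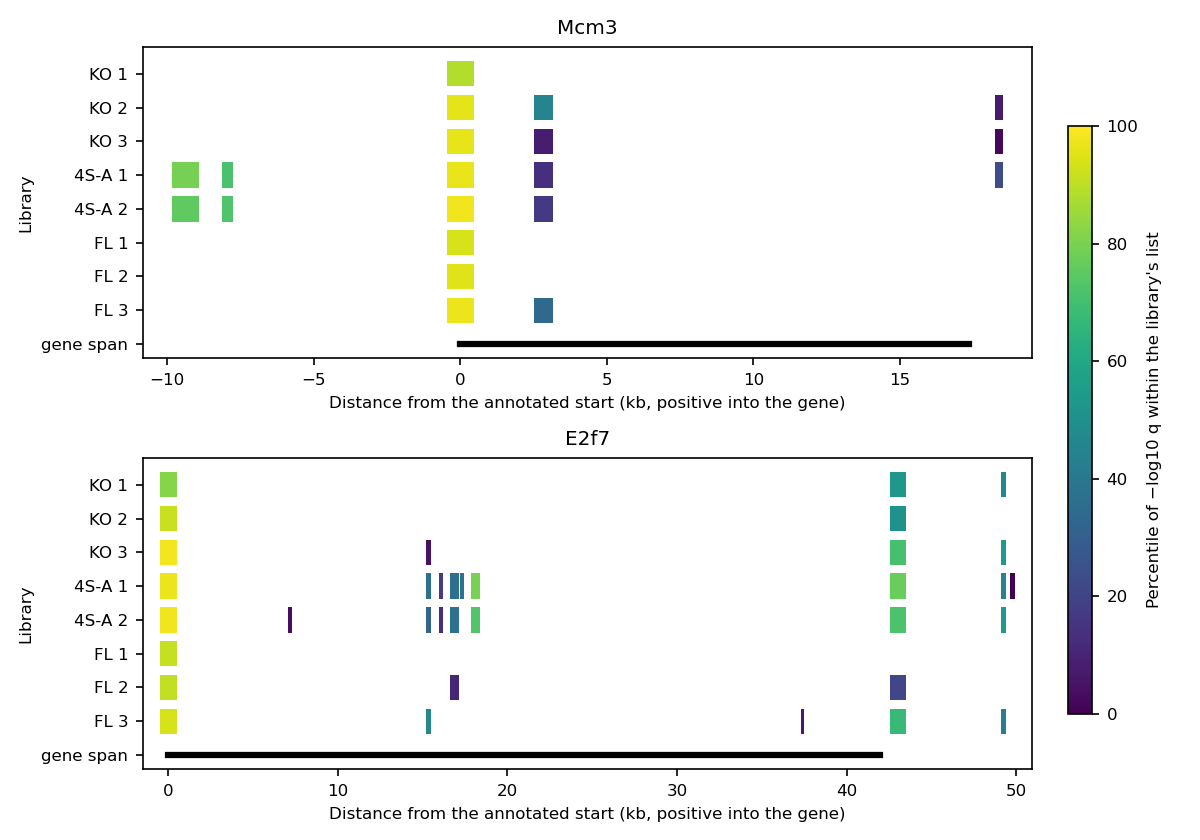
Regions near Mcm3 and E2f7 by distance from the annotated start (horizontal axis, kb), in 8 libraries from KO at the top through 4S-A to FL, coloured by list percentile where the library holds a peak; the black bar is the gene. Regions 7953 and 9269 bases upstream of Mcm3 and 18181 bases into E2f7 appear only in the 4S-A rows.

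Of the 4 lost sites, 3 were low in the lists that held them. Inside Aurka, a site 6823 bases from the start stood at 6.70 in KO 3 and 3.79 in FL 3, and 1 at 910 bases, which counts as a promoter region by the distance used, at 0.209 and 7.36. Near Mcm2, a site 19100 bases downstream of the start stood at 20.5 in KO 3 and 22.1 in FL 3. A site 5180 bases upstream of Mcm2 stood at 50.1 and 26.9 in KO 2 and KO 3, and 9.67, 48.0 and 34.7 in FL. It was the lost site held by the most libraries, 5 of 8.

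For strength in 4S-A, limma called 0 of 73 regions (0.003% of all in each direction, 1 region each). At an unadjusted p under 0.05 limma gave 3 higher and 2 lower, against 4.93% and 5.31% of all. E2f8, a repressor that acts with E2f7, read 68.8 and 70.3 in 4S-A, against 84.2 in KO 3 and 79.1 in FL 3. In the Mx1-Cre set E2f8 read 87.2 and 87.8 in KO and 92.7 and 89.6 in FL, so both 4S-A libraries were the lowest of the 8. The limma difference was -12.1 ± 4.00 points, with an adjusted p of 0.368. Plk1 (-8.24), E2f3 (-8.05), Cdt1 (-5.89) and Mcm7 (-5.53) had the next largest negative differences in limma, with adjusted p of 0.842, 0.528, 0.863 and 0.757.

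Ccne1, which codes for the cyclin that triggers S phase with CDK2, read 93.1 and 93.9 in 4S-A, against 90.2 in KO 3 and 80.3 in FL 3. The 4S-A libraries were above both, and FL 3 was the lowest of the 8. The limma difference was 8.20 ± 3.99 points, with an adjusted p of 0.573, and it was -0.484 without the set term. Cdk2, its partner kinase, read 85.4 and 82.7 in 4S-A, against 76.4 in KO 3 and 76.7 in FL 3 (limma difference 7.51 ± 3.81, adjusted p 0.597). Cdc45, Rrm2 and Aurka followed in limma with 5.19, 5.00 and 4.11 points and adjusted p of 0.826, 0.941 and 0.933, and Cdc45 read -0.921 without the set term. Values of 4S-A and of KO 3 with FL 3 did not overlap in 13 of 73 regions for higher, against 22.5% of all regions. For lower the count was 15 of 73, against 23.1%. Of these, 3 higher and 9 lower were among the 34 promoters. The 3 higher promoters were Cdc45, Ccne1 and Cdk2. The 9 lower were Mcm5, Mcm7, Cdt1, Orc1, E2f3, E2f8, Cdk1, Plk1 and Top2a.

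The mean over the 35 promoters was 78.0 ± 1.23 in 4S-A, against 78.9 ± 1.22 in KO 3 and FL 3 (SD, n = 2 each). The exact permutation p was 0.667, and 2 against 2 cannot give a p below 0.333.

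At sites away from promoters, the presence of a peak varied widely between libraries. Of 137 such sites, 29.2%, 46.0% and 66.4% were held in KO 1, KO 2 and KO 3, 67.9% and 62.8% in 4S-A, and 31.4%, 37.2% and 67.2% in FL. The share followed the set and not the genotype. Over all other sites near protein-coding genes the shares were 33.9%, 46.1% and 64.1% in KO, 71.8% and 63.9% in 4S-A, and 29.5%, 31.8% and 63.0% in FL. All 4 libraries of the Tie2-Cre set and none of the Mx1-Cre set held 16 of the 137 sites (11.7%), against 8.61% of all other sites, and 0 of 137 showed the reverse. Only 1 library held 40 of the sites (29.2%), against 25.0%.

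**Figure D5:**
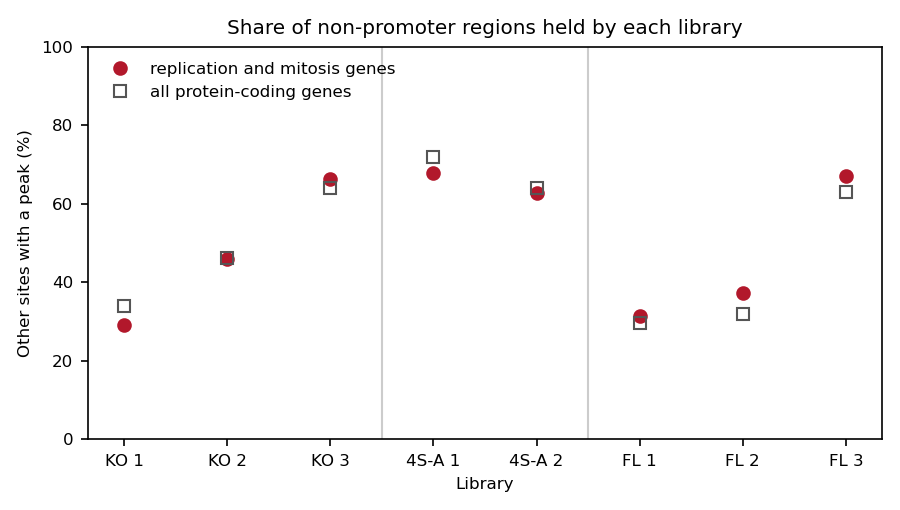
Percent of non-promoter regions with a peak (vertical axis, from 0) in each library, for the 35 genes (filled circles) and for all protein-coding genes (open squares), with KO, 4S-A and FL from left to right. The libraries of the Tie2-Cre set (KO 3, both 4S-A, FL 3) are between 62.8% and 67.9%, and those of the Mx1-Cre set between 29.2% and 46.0%, for the 35 genes.

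The share for the 35 genes minus the share for all genes was -0.840 ± 3.56 points in KO and 3.82 ± 1.80 in FL (SD, n = 3 each). The difference of -4.66 points had an exact permutation p of 0.2, and it was -6.08 inside the Mx1-Cre set and -1.83 inside the Tie2-Cre set. For 4S-A the value was -2.56 ± 1.96 against 3.22 ± 1.30 in KO 3 and FL 3 (SD, n = 2 each), a difference of -5.78 with an exact permutation p of 0.333, the smallest possible.

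The strongest of these sites in all libraries lay in Cdc6, the helicase loader, 10237 bases from the start (chr11:98917424-98918840). It stood at shared-region percentiles of 93.3, 91.7 and 87.1 in KO, 79.9 and 85.7 in 4S-A, and 86.2, 85.8 and 90.8 in FL. KO 1 and KO 2 were highest and 4S-A 1 lowest. Sites 36516 bases downstream of the Mcm6 start and 10442 bases from the Mcm5 start followed, with means of 69.6 and 65.9. Next were a site near Gins2 (chr8:120572337-120573112, mean 51.4) and an E2f2 site 4830 bases after the downstream start (50.5). A Tyms site (36.7), an E2f2 site at -2939 bases from that same E2f2 start (34.2) and another Tyms site (34.2) followed. Both E2f2 sites lie inside the gene. These 8 sites were the strongest of the 25 other sites held by all libraries, whose median was 28.3, against 38.1 for all such sites.

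The last of these Tyms sites, 37514 bases downstream of the start and beyond the end of the gene (chr5:30035727-30036503), stood at 61.5 and 61.1 in 4S-A. It stood at 26.5, 33.2 and 35.4 in KO and 18.3, 12.0 and 25.6 in FL, so 4S-A was above all other libraries and every KO library was above every FL library. The limma difference was 30.8 ± 4.35 points for 4S-A, with an adjusted p of 0.0925. For KO it was 13.1 ± 3.55 points, with an adjusted p of 0.369. It had the largest 4S-A difference among the 73 regions and was the 1 region with KO above all FL, and is named for that.

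The number of regions per gene ran from 1 to 11. E2f2 and E2f7 had 11 regions each, and E2f3, Aurkb and Mki67 had 9. Top2a had its promoter only, in every library, over a gene of 31.3 kb. Plk1 and Ccna2 had 2 regions each, and Ccne1, Ccne2, Ccnb1, Cdk1 and Bub1 had 3. E2f2 held 6, 8 and 9 regions in KO, 10 and 9 in 4S-A, and 7, 6 and 11 in FL, which again followed the set.

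A wider list of 77 other replication and mitosis genes, such as polymerase, clamp loader, kinetochore and condensin genes, gave 487 regions. A promoter peak in all 8 libraries was present for 73 of the 77 (94.8%). The exceptions, named after their values were seen, were Timeless (6 libraries), Tk1 (7), Tfdp2 (1) and Kif11 (0). In KO, 1 of 176 regions was lost, at Rbl1, a retinoblastoma relative, against 0.214% of all, and 0 of 201 were gained, against 0.754%. In 4S-A, 16 of 318 were lost, against 5.16% of all, and 24 of 335 gained, against 10.8%. Of 160 regions of this list held by all libraries, limma called 0 for KO and 0 for 4S-A.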

How the data were processed

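ATAC-seq peak lists, 1 per library, were used for 8 libraries of L-GMPs. Per the labels' protocols, about 5000 cells entered each reaction and 13 to 16 PCR cycles followed. The tools given in the submitters' processing notes, without parameters, are MACS2, featureCounts, Picard, Bowtie2 2.2.9 and Trim Galore 0.4.4, and the assembly is mm10. The authors deposited for each peak a fold enrichment (a ratio over that library's own background), the −log10 p, the −log10 q, the summit, and a score that equalled 10 times the −log10 q, truncated. None was scaled between libraries, so peaks were ranked within a library.

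Only peaks on chromosome X and the 19 autosomes entered, which left out 0.146% to 0.296% per list. Gene spans and starts came from RefSeq tables of GRCm38.p6. The start table had no entry for 6 members (Gins1, Gins2, Ccna2, Ccne2, Aurkb and Mcm4), for which a summit within 1 kb of either gene end counted as a promoter. Where a gene had several promoter regions, the strongest was used. A region was lost where every library of the comparison group held a peak and no library of the other did, and gained in the reverse case.

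Percentiles were fitted with limma 3.58.1 in R 4.3.3 with the set as a term, tested on simulated data, and called at an adjusted p under 0.05. The 4S-A contrast was against the mean of FL and KO. Single values had exact permutation tests over libraries (scipy 1.17.1). Deviations of KO and FL libraries with the same number correlated at 0.241, 0.303 and 0.553. KO 1 with FL 2 and KO 2 with FL 1 gave 0.266 and 0.275. The main tests did not pair libraries, and pairing by number entered only in an alternative, the replicate block. The peak names inside the lists of KO 1 and KO 2 carry the numbers 2 and 3, so which libraries share a number is uncertain. Alternatives were lists of equal length, a −log10 q of at least 3, merging by summits within 250 bp, a flank of 1 kb, a promoter window of 500 bp, ranks in the whole list, a logit scale, no set term, the Tie2-Cre set alone, a replicate block, and each library left out.

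The genes, their roles, the further gene list, motifs and markers were chosen with earlier results of these data known. Genes were named by a rule: all promoters of the 35 genes, every lost or gained region, the 8 strongest other sites, the 5 largest differences in each direction, and the genes with the most and fewest regions. Exon and intron positions were not used here.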

Additional observations from a re-analysis of the deposited data

Results flagged for a closer look

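The mean shared-region percentile of the 35 promoters moved in opposite directions in the 2 sets. KO minus FL was -2.74 points inside the Mx1-Cre set, where both KO libraries (78.8 and 79.1) lay below both FL libraries (81.2 and 82.1), and 1.73 points inside the Tie2-Cre set, where KO 3 (79.8) lay above FL 3 (78.1). All promoters of protein-coding genes differed by -1.88 and 1.41 points in the same sets. The Tie2-Cre set has 1 library per genotype, and the difference between the sets in this mean was not tested.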

How the results depend on the processing

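Limma called 0 regions of the 35 genes, for KO and for 4S-A, with lists of equal length, a −log10 q of at least 3, merging by summits, a flank of 1 kb, a logit scale and each library left out, and likewise for KO without the set term and for 4S-A in the Tie2-Cre set alone. The KO minus FL promoter difference changed sign with ranks in the whole list (0.567 points), and leaving out 1 library moved it between -2.45 and -0.441. The 4S-A promoter difference ranged from -1.75 to -0.0124 without 1 library. The other-site difference ranged from -6.23 to -2.73 for KO and from -7.16 to -4.39 for 4S-A. With a flank of 1 kb, 2 regions were lost and 4 gained in 4S-A, since fewer sites were counted. The flank did not change the shares over all regions, 5.16% lost and 10.8% gained. The number of regions of the 35 genes that could be lost or gained with this flank is not given. Its counts therefore cannot be set against those shares. Without 1 library, lost regions in 4S-A numbered 6 to 15, gained regions 9 to 11, and gained regions in KO 0 to 2, since fewer libraries had to agree. No share over all regions is given for the 6 lost without 4S-A 2. The same holds for the 9 gained without KO 3 and the 10 gained without 4S-A 1. Those counts therefore have no background to be compared with. With the replicate block, the KO differences stayed at -1.25 points (exact permutation p of 0.5) and -4.66 points (p of 0.25, the smallest possible), and limma called 0. The block changed no call. Of 680 values of the 68 promoter differences under other fits, 37 moved by more than the SE. The sign was opposite in 64 values, at 36 of the 68 differences, none of them called, so the direction at those promoters is not established. Depth can be read only from the number of peaks, and a missing peak in a short list of the Mx1-Cre set does not show closed chromatin.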
